A study of Mus musculus with 40 samples.

Results

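Chemokines are small secreted proteins that attract leukocytes, and their receptors are G protein-coupled receptors on the surface of the attracted cells. The genes described here were taken by symbol alone, as every name in the count tables of a mouse kidney study that starts with Ccl, Cxcl, Ccr, Cxcr, Xcl, Xcr, Ackr, Cx3cl or Cx3cr followed by a digit. The rule used no measured value and found 64 of 55867 names. Of these, 60 were compared and 4 (Ccl2, Ccl11, Ccl12 and Cxcr2) were not, because their counts disagreed within or between tables. The 60 fall into 5 neutrophil attractants with an ELR motif, 3 CXCR3 ligands, 5 other CXC ligands, 9 inflammatory CC ligands, 12 lymphoid and epithelial CC ligands, 2 C and CX3C ligands, 11 CC receptors, 7 CXC, C and CX3C receptors, 4 atypical receptors and 2 others.

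Total RNA of kidneys from wild-type C57bl/6 mice was sequenced in a study of ischaemia-reperfusion injury (IRI), the damage that follows when blood flow to the kidney is stopped and restored. The design text names the question as the effect of human mesenchymal stromal cells (MSCs) on this injury, with a time course to place the therapeutic window. There were 40 libraries in 10 groups of 4, held in 3 count tables. The temporal table held Control kidneys, for which no treatment is named, and kidneys 6, 24, 48 and 72 h after reperfusion. The therapy table held the same 4 Control libraries, kidneys labelled AKI and 6 h after reperfusion, and 2 groups that received human MSCs from bone marrow (BM-MSC) or umbilical cord (UC-MSC) right after reperfusion. The labels used here give no sampling time for those 2 groups and say nothing of a vehicle injection in AKI. The sham table held kidneys without surgery (sham control) and kidneys 24 h after surgery without ischaemia (sham 24 h), although the treatment tag of the latter reads IRI.

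Inflammatory chemokines such as Cxcl1 and Ccl7 are induced by tumour necrosis factor, interleukin-1 and Toll-like receptor signals through the transcription factor NF-kB, and draw neutrophils and monocytes into injured kidney. Homeostatic chemokines such as Cxcl12, Cxcl14, Ccl28 and the membrane-bound Cx3cl1 are made by epithelial, stromal or endothelial cells in the absence of injury. Atypical receptors (the Ackr genes) bind chemokines without G protein signalling and clear or transport them.

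The promoters of 4 ligands that rose and of Cxcl12, which fell, are shown with the sequence type NF-kB binds, and these 5 were chosen after their values were seen. Each line gives the 120 bases before the RefSeq transcription start (GRCm38.p6, plus strand in all 5), read 5′ to 3′, with matches to GGGANNNNCC on either strand in capitals. Cxcl1 lies at chr5:90891125-90891244, Cxcl2 at chr5:90903779-90903898, Cxcl3 at chr5:90785981-90786100, Ccl20 at chr1:83116646-83116765 and Cxcl12 at chr6:117168415-117168534.
Cxcl1: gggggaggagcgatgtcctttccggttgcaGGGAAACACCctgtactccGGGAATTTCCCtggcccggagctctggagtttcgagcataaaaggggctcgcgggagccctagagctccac
Cxcl2: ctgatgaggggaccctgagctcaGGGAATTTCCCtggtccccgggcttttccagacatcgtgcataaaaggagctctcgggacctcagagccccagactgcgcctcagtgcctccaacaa
Cxcl3: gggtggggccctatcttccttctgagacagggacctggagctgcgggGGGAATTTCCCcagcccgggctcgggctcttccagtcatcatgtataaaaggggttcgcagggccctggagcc
Ccl20: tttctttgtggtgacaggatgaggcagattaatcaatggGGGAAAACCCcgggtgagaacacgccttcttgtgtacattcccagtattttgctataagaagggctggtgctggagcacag
Cxcl12: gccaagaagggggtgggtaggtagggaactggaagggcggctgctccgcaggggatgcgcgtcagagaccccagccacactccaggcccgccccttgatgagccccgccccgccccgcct
Matches began 90 and 71 bases before the start in Cxcl1, 97 in Cxcl2, 73 in Cxcl3 and 81 in Ccl20, counting from the first base of the match (those of the longer runs overlap a match on the other strand). The 120-base window of Cxcl12 held no match, nor did those of Ccl6, Ccl9, Ccl19, Ccl28 and Cxcl9, which also changed. This says only that these letters are not in that window. Further upstream Cxcl9 and Ccl19 had 1 match each, beginning 130 and 250 bases before the start. Over the 250 bases before each start, GGGANNNNCC stood in 17 of 45 member genes with an entry (37.8%) and in 4684 of 27025 promoters, 1 per gene (17.3%). The longer run GGGAATTTCCC, searched after it had been seen in these windows, stood in 11 of 27025 promoters (0.0407%), among them Cxcl1, Cxcl2 and Cxcl3. A match is a description of the letters and not a bound site.

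Levels are given as CPM (read counts scaled to library size, by TMM within a table), one value per library in the order of the library numbers. Changes are log2 fold changes ± SE from edgeR's quasi-likelihood test (two-sided, 4 libraries a group), with p-values adjusted by Benjamini-Hochberg over all genes of the fit. A gene is said to have risen or fallen where the adjusted p was under 0.05. Nothing in the labels says that the 4 libraries of a group were separate mice, so a p-value covers the spread between libraries, which may be technical. Of the 60 members, 32 passed the filter on low counts in the temporal table, 37 in the therapy table and 27 in the sham table, and 19 passed in none. A member that passed through the group where it is high had to differ, so counts of members are given as shares of all 60. In the temporal table Ccl4 and Ccl8 passed only with the 6 h libraries and Ccr4 only with those of 72 h. In the therapy table Ackr4, Ccl3 and Ccl17 passed only with the UC-MSC libraries, and Ackr1 with 3 of these and 1 of BM-MSC. The levels of these 7 in that table are given as a description, with no fold change or p, although counts of called members hold them.

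Library totals ran from 13313097 to 17533712 counts at 6 h and 14938484 to 16338711 in Control, but only from 4640921 to 5366202 at 72 h. The mean share of mitochondrial ribosomal RNA was 0.201% in Control, 0.308% at 6 h, 1.81% at 24 h, 3.45% at 48 h and 3% at 72 h, and 1.4% in AKI, 0.201% in BM-MSC and 0.385% in UC-MSC. Each but BM-MSC (p = 0.971) differed from Control at the smallest p that an exact permutation test of 4 against 4 allows (0.0286, two-sided). Libraries 2 and 4 of 72 h held adrenal genes (Chga at 408 and 402 CPM against 10.5 and 3.0 in libraries 1 and 3). The part of RNA quality and of the adrenal tissue in the results was not tested, except where values without libraries 2 and 4 are given.

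At 6 h after reperfusion 12 of 60 members rose (20%) and 1 fell (1.67%), where 10.4% of all genes tested rose and 8.51% fell. By 24 h 11 rose and 6 fell (18.3% and 10.0%), against a background of 21.8% and 20.2%. At 48 h 13 rose and 4 fell (21.7% and 6.67%, background 26.9% and 26.8%), and at 72 h 14 rose and 7 fell (23.3% and 11.7%, background 26.7% and 29.6%). In AKI, 15 rose and 5 fell (25.0% and 8.33%, background 20% and 15.1%). In BM-MSC kidneys 14 rose (23.3%, background 6.56%) and 0 fell by edgeR (background 2.36%), where also 0 were lower at an unadjusted p under 0.05 and 0 by DESeq2. In UC-MSC kidneys 20 rose and 3 fell (33.3% and 5.0%, background 20.4% and 16.7%). These background shares are of the genes that passed the filter, while 28 of the 60 members did not pass in the temporal table and 23 did not in the therapy table, so the shares have unlike bases. Of all 55782 names, passed or not, 3.09% rose and 2.54% fell at 6 h, 6.5% and 6.02% at 24 h, 8.04% and 8% at 48 h, and 7.97% and 8.83% at 72 h. On that base 5.95% rose and 4.49% fell in AKI, 1.95% and 0.705% in BM-MSC, and 6.09% and 4.98% in UC-MSC. The count at 6 h moved with the fit, since 21 members were higher and 1 lower where only Control and 6 h were fitted. As a description, the median log2 fold change of the members that passed was 1.06 at 6 h, where that of all genes tested was -0.07, and 1.45 in UC-MSC, where it was 0.09.

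**Figure D1:**
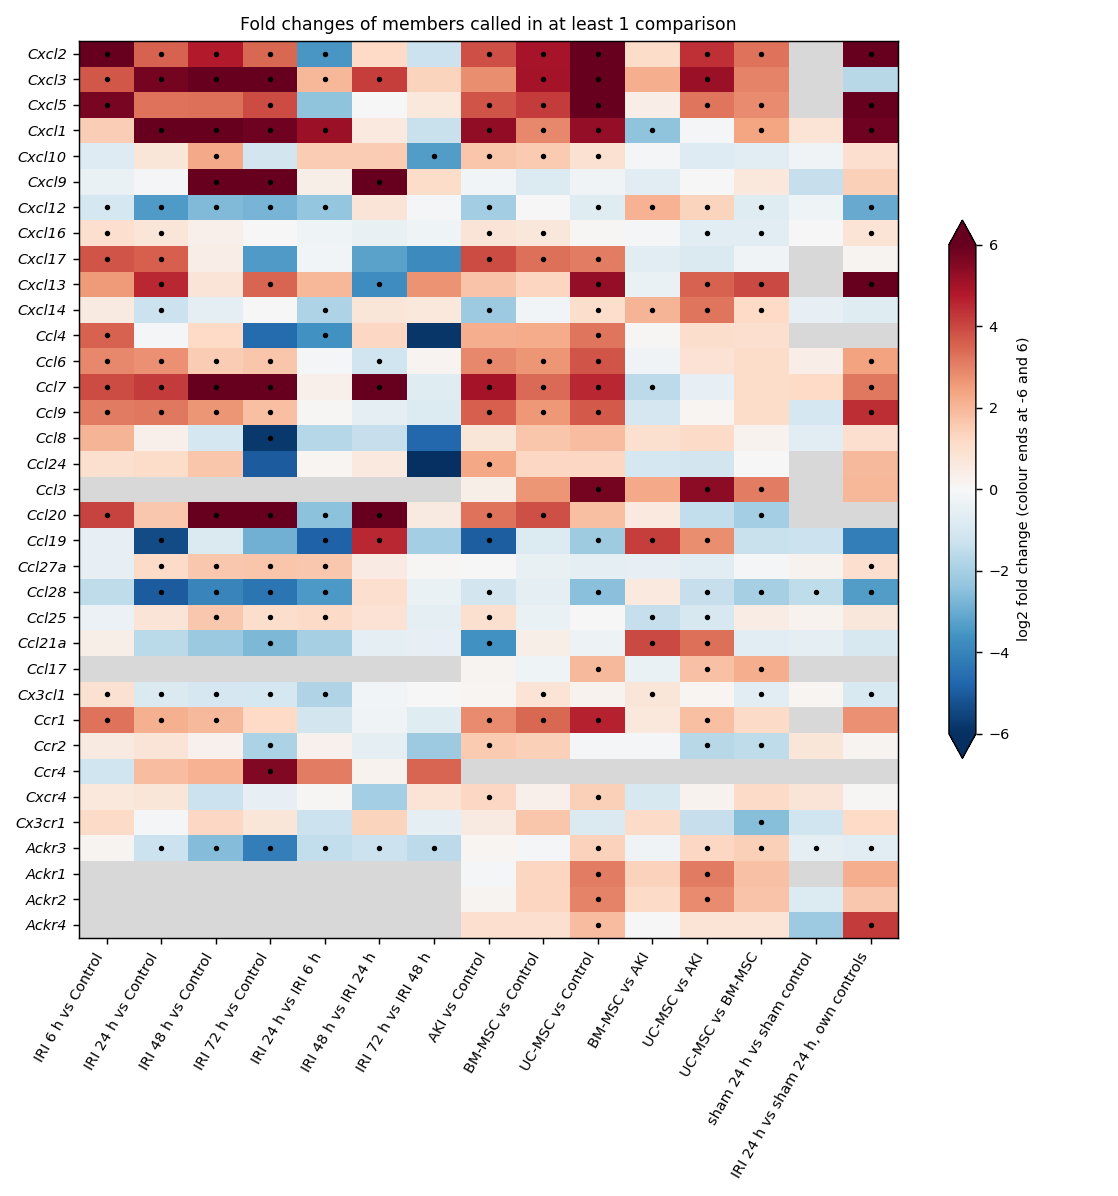
Log2 fold changes of 35 members called in at least 1 of 15 comparisons, one column per comparison, with colours limited at -6 and 6, a dot where the adjusted p was under 0.05 and grey where a member was not tested. The ELR ligands and Ccl6, Ccl7 and Ccl9 are red in most columns against Control, and Cxcl12 is blue with a dot at every time after IRI, as Ccl28 is from 24 h on.

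The neutrophil attractants with an ELR motif act on Cxcr2, whose own counts could not be used. Of the 5 members, 3 rose at 6 h, 3 at 24 h, 3 at 48 h and 4 at 72 h. Of all names, 3.09%, 6.5%, 8.04% and 7.97% rose at these times. In AKI 3 members rose and in each MSC group 4, beside 5.95% (AKI), 1.95% (BM-MSC) and 6.09% (UC-MSC) of all names. The fifth, Cxcl15, was too low to test. The counts at 48 and 72 h hold Cxcl3, which is marked below for its late step. Cxcl5 lost its call at 72 h without Control library 2, 3 or 4 or 72 h library 3 (log2 fold change 2.49 to 4.24). Cxcl2, made early by macrophages and neutrophils, stood at 0.637, 0.352, 0 and 0.279 CPM in Control and at 136, 12.1, 10.7 and 14.8 CPM at 6 h. All 6 h libraries lay above all Control libraries, and library 1 stood far above the others. Cxcl2 rose by a log2 fold change of 7.03 ± 1.05 (adjusted p = 3.5e-05). At 24 h its level was 2.38, 3.58, 5.67 and 3.8 CPM, below every 6 h library, and it fell from 6 to 24 h by 3.47 ± 0.85 on the log2 scale (adjusted p = 0.0033). That fall lost its call without library 1 of 6 h (log2 fold change -1.69).

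Cxcl1, the mouse counterpart of the human GRO ligands, kept another course. Its level was 1.66, 1.34, 0.484 and 1.96 CPM in Control, and 5.63, 2.39, 3.58 and 3.66 CPM at 6 h (log2 fold change 1.46, adjusted p = 0.17). At 24 h it stood at 182, 111, 98.8 and 136 CPM and at 48 h at 183, 221, 183 and 210.1 CPM. Every 24 and 48 h library lay above every 6 h library. Cxcl1 rose from 6 to 24 h by a log2 fold change of 5.12 ± 0.66 (adjusted p = 3.6e-06), and stood 6.58 ± 0.73 above Control at 24 h (adjusted p = 1.3e-07). At 72 h library 1 kept 243 CPM while libraries 2, 3 and 4 had 21.7, 31.8 and 14.8 CPM. Over 55862 names, with 0.5 CPM added before the log, 7 rose by more than 4 from 6 to 24 h, Cxcl1 among them, and 5 of the other 6 were names left out because their counts disagreed. Whether this bears on Cxcl1 was not tested.

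Cxcl5, an epithelial ELR ligand, stood at 28.2, 2.44, 3.07 and 3.2 CPM at 6 h against 0.382, 0, 0 and 0.279 CPM in Control (log2 fold change 5.68 ± 1.58, adjusted p = 0.012). Library 1 again stood apart, and without it the value was 4.03 and not called. Cxcl3 rose at 6 h by 3.73 ± 1.1 (adjusted p = 0.019) although library 1 held 0.225 CPM, inside the Control range of 0 to 0.559 CPM. It lost that call without Control library 2 or 3 or 6 h library 3 (log2 fold change 3.34 to 3.35). The summed level of 10 neutrophil markers was 469 CPM in library 1 of 6 h and 52.9 to 60.7 CPM in the others, against 3.52 to 5.59 CPM in Control, where Ly6g, Mpo, Elane and Ngp had no count. The part of neutrophil RNA in these values was not tested. In whole kidney, more cells that express a gene and more of its RNA per cell cannot be told apart.

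**Figure D2:**
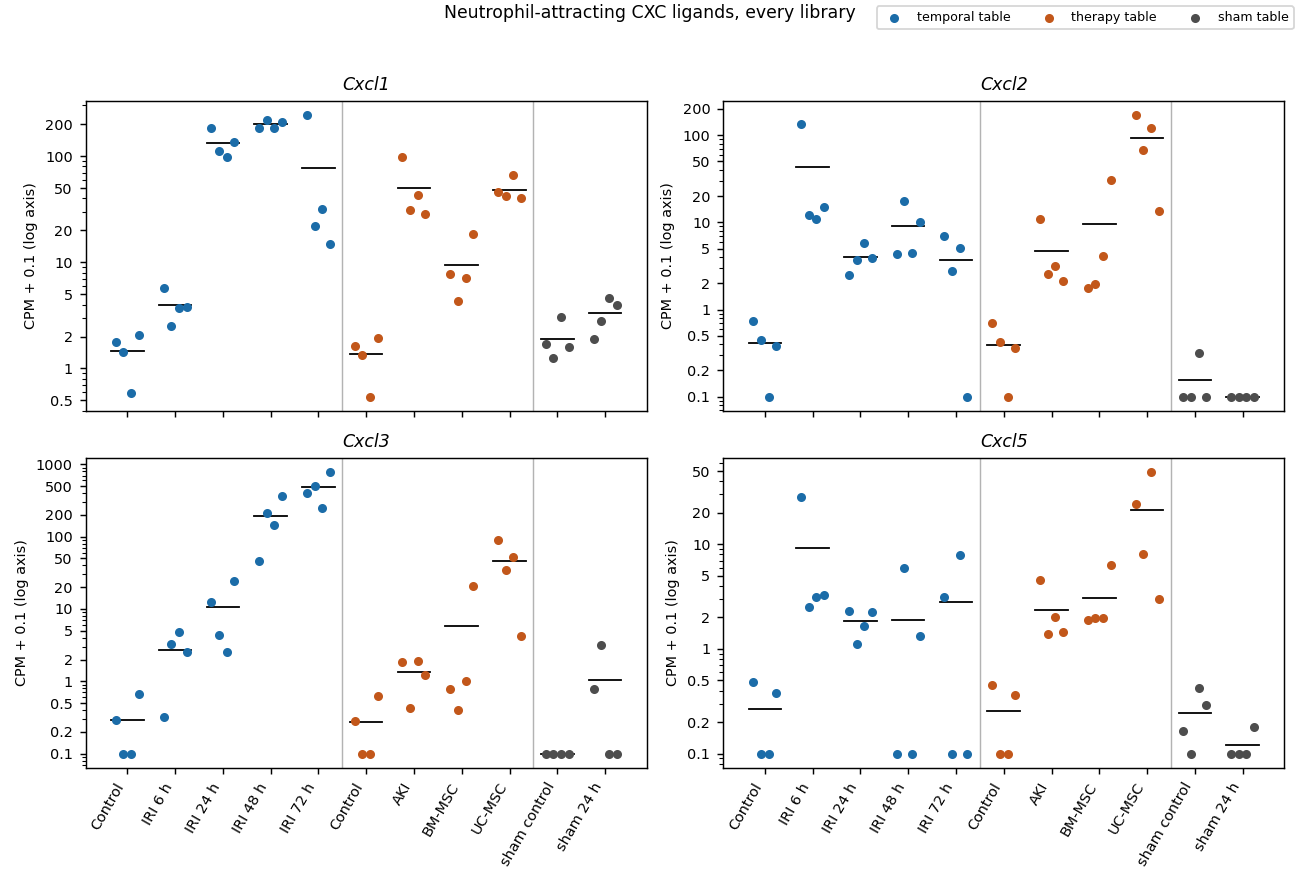
Levels of Cxcl1, Cxcl2, Cxcl3 and Cxcl5 in every library (points, CPM + 0.1 on a log axis) with the group mean (line) in the temporal, therapy and sham tables. By group mean, Cxcl2 is highest at 6 h (136 CPM in library 1) and in UC-MSC (13.3 to 169.8 CPM), and Cxcl1 at 24 and 48 h (98.8 to 221 CPM). The highest single library of Cxcl1 is library 1 of 72 h (243 CPM).

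The CXCR3 ligands Cxcl9 and Cxcl10, which interferons induce and which attract T and natural killer cells, rose at the later times, unevenly, and Cxcl10 also rose in the therapy table. Of the 3 members, 2 rose at 48 h and 1 at 72 h (background 8.04% and 7.97% of all names). Cxcl9 stood at 2.87, 1.9, 2.42 and 6.22 CPM in Control and at 0, 457, 372 and 32.6 CPM at 48 h (log2 fold change 6.0 ± 1.02, adjusted p = 3.3e-05). Library 1 of 48 h held no count while library 2 held 2479, so the groups overlapped. At 72 h all 4 libraries were high, at 276, 284, 635 and 663 CPM (log2 fold change 7.11 ± 1.07, adjusted p = 6e-06). Cxcl10 stood at 4.93 to 6.08 CPM in Control and at 30.7, 42.6, 30.6 and 1.22 CPM at 48 h (log2 fold change 2.28 ± 0.83, adjusted p = 0.024). At 72 h its libraries held 0, 5.33, 0 and 4.94 CPM, lower than at 48 h by 3.36 ± 0.91 (log2, adjusted p = 0.034). The 2 ligands thus parted at 72 h. The third, Cxcl11, was too low to test in the temporal table. Cxcl9 in AKI, BM-MSC and UC-MSC lay between 0.844 and 5.2 CPM, within the range of Control and just below it. The 2 Cxcl10 calls in the temporal table depended on single libraries (48 h against Control lost without Control library 1, 2 or 3 or 48 h library 2, log2 fold change 1.91 to 2.27, and 72 h against 48 h lost without 48 h library 1, 2 or 3, -3.27 to -3.03). In the therapy table Cxcl10 stood at 4.75, 4.55, 5.05 and 5.68 CPM in Control, and at 27.4, 8.27, 14.1 and 13.9 CPM in AKI (log2 fold change 1.67 ± 0.32, adjusted p = 0.00096). It held 12.8, 11, 19.5 and 15.7 CPM in BM-MSC (1.56 ± 0.32, adjusted p = 0.0069) and 12.9, 7.14, 10.2 and 7.12 CPM in UC-MSC (0.9 ± 0.31, adjusted p = 0.033). No library of these 3 groups reached down to Control. The calls in AKI and BM-MSC were kept whichever 1 library was left out, and that in UC-MSC was lost without any 1 of 6 libraries (0.71 to 0.97).

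Among the other CXC ligands, Cxcl12 fell at every time. Cxcl12 is the ligand of Cxcr4 and Ackr3 and retains leukocytes and progenitor cells. Its level was 235, 242, 235 and 224 CPM in Control, 82.4, 111, 125 and 127 CPM at 6 h and 22.7, 12.1, 28.8 and 24.2 CPM at 24 h. No 6 h library reached a Control library and no 24 h library reached a 6 h library. The log2 fold change was -1.07 ± 0.27 at 6 h (adjusted p = 0.0063), -3.41 ± 0.3 at 24 h (4.7e-09), -2.63 ± 0.29 at 48 h (7.8e-08) and -2.77 ± 0.29 at 72 h. Markers of kidney cells fell over the same times, with 7 of 9 present. Their summed level was 11542 to 13709 CPM in Control, 3237 to 6369 CPM at 6 h, 2503 to 3348 CPM at 24 h, 1531 to 2879 CPM at 48 h and 1236 to 1525 CPM at 72 h, and 4, 5, 5 and 6 of the 9 were lower than Control in turn. The summed level of 5 adipocyte markers was 246 to 324 CPM in Control, 864 to 1929 CPM at 24 h (2 of 5 higher), 29.8 to 443 CPM at 48 h and 112 to 164 CPM at 72 h. Their part in the falls of Cxcl12, Cxcl14, Ccl28 and Ackr3 was not tested. Cxcr4, the receptor of Cxcl12, was not called at any time in the temporal table, at 4.9 to 9.53 CPM at 6 h against 3.17 to 6.29 CPM in Control. In the therapy table Cxcr4 measured 3.32, 2.92, 3.85 and 5.88 CPM in Control, 16.9, 7.38, 7.05 and 6.8 CPM in AKI and 12.4, 10.5, 14.1 and 6.55 CPM in UC-MSC, so that neither injured group overlapped Control. It rose in AKI by a log2 fold change of 1.25 (SE 0.47, edgeR adjusted p = 0.049). That call was lost without AKI library 1, 2 or 3 or Control library 1, 2 or 3, at log2 fold changes of 0.8 to 1.37. It rose in UC-MSC by a log2 fold change of 1.45 (SE 0.47, edgeR adjusted p = 0.024), a call lost without Control library 1, 2 or 3 or UC-MSC library 3, at 1.3 to 1.43.

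Cxcl14, an epithelial ligand, stood at 43.1, 49.4, 36.7 and 42.3 CPM in Control and fell at 24 h to 6.39, 13.7, 21.7 and 26.8 CPM (log2 fold change -1.31 ± 0.38, adjusted p = 0.0074). Its 72 h libraries (48.2, 47.2, 59.3 and 19.8 CPM) lay around the Control level again. Cxcl16, a membrane-bound ligand of Cxcr6, rose in all 6 h libraries to 106, 103, 112 and 96.2 CPM from 52, 48.2, 55.4 and 50.7 CPM (log2 fold change 1.01 ± 0.21, adjusted p = 0.0014). Its receptor Cxcr6, found on T and natural killer T cells, was below the filter in every table and had no count in any library at 24, 48 or 72 h, at least 9.60-fold lower at 24 h than in Control by the floor of 3 counts over the group. Cxcl13, the B cell attractant, rose at 24 h to 18.9, 5.63, 19.8 and 22.7 CPM from 0.208 to 1.54 CPM (log2 fold change 4.52 ± 1.21, adjusted p = 0.0041). Cxcl17, a mucosal ligand, rose at 6 h to 1.95, 1.49, 1.97 and 1.54 CPM from 0 to 0.21 CPM (log2 fold change 3.75 ± 1.11, adjusted p = 0.021), a call lost without any 1 of 7 of the 8 libraries (3.37 to 4.12).

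**Figure D3:**
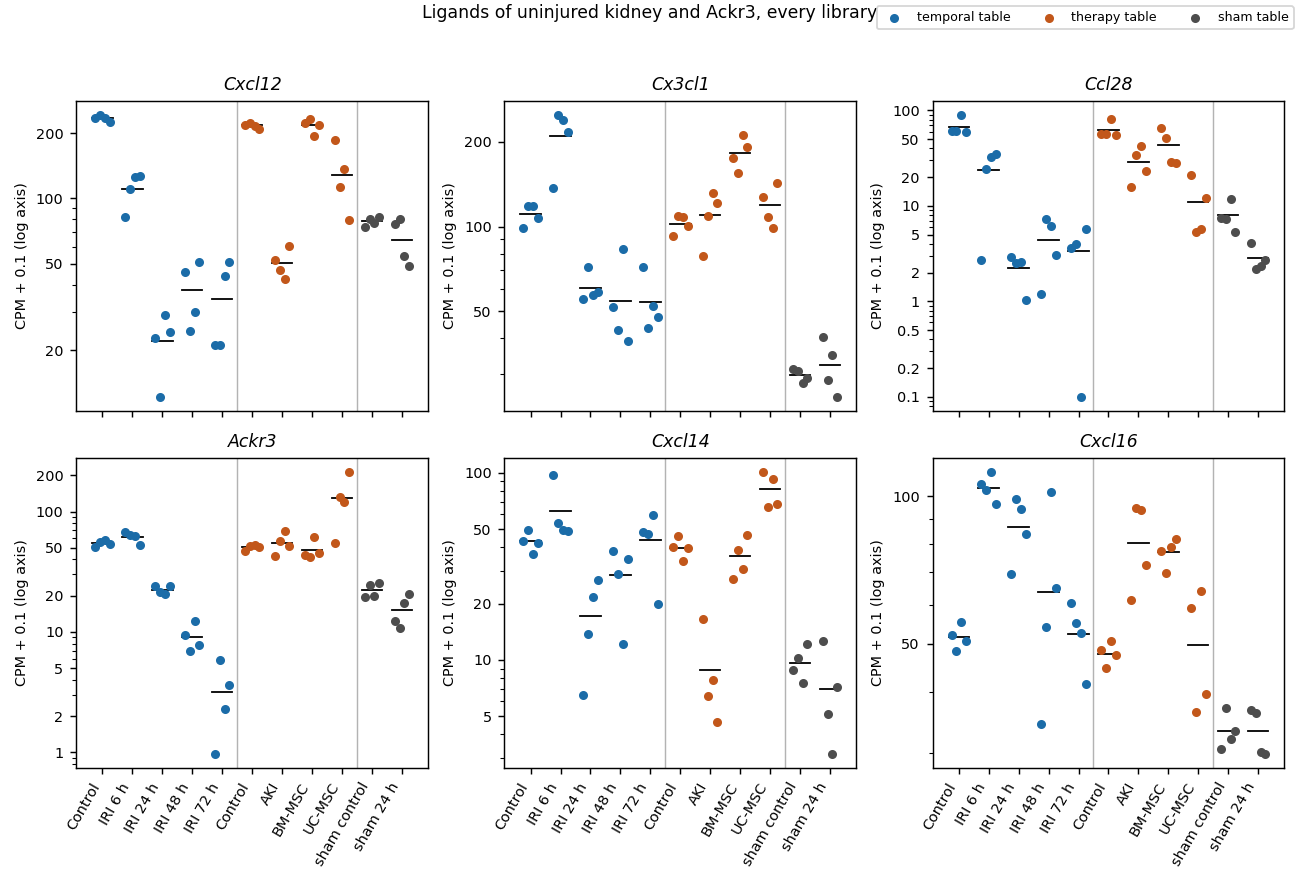
Levels of Cxcl12, Cx3cl1, Ccl28, Ackr3, Cxcl14 and Cxcl16 in every library (points, CPM + 0.1 on a log axis) with group means (lines) in the 3 tables. Cxcl12 lies below Control at each time after IRI, Ackr3 steps down from 24 to 72 h, and the BM-MSC libraries of Cxcl12 (194 to 232 CPM) lie at the level of Control.

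Of the 9 inflammatory CC ligands, which act on receptors of monocytes and other leukocytes, 4 rose at 6 h, 3 at 24 h and 3 at 48 h. At 72 h 3 rose and 1 fell, and the median log2 fold change of the 7 that passed the filter was -0.61. Of all names, 3.09%, 6.5%, 8.04% and 7.97% rose at these times, and 8.83% fell at 72 h. The counts at 48 and 72 h hold Ccl7, which is marked below for its late step. Ccl6, a Ccr1 ligand of myeloid cells, rose from 8.54, 8.94, 6.37 and 7.19 CPM in Control to 89.6, 35.9, 57.9 and 42.5 CPM at 6 h (log2 fold change 2.86 ± 0.32, adjusted p = 7.7e-07). Ccl9, another Ccr1 ligand, rose from 4.27, 2.89, 4.01 and 4.89 CPM to 55, 23.4, 39 and 20.8 CPM (log2 fold change 3.1 ± 0.42, adjusted p = 1.3e-05). Both stayed above every Control library at 24, 48 and 72 h. Ccl7, a Ccr2 ligand that attracts monocytes, rose from 0.318, 0.211, 0.208 and 0.489 CPM to 3.9, 4.89, 6.58 and 3.78 CPM (log2 fold change 3.91 ± 0.37, adjusted p = 1.1e-07). At 24 h it held 6.39, 7.8, 3.82 and 5.95 CPM, and its values at 48 and 72 h are given with the late steps. Ccl4, a ligand made by macrophages and lymphocytes, stood at 7.66, 1.38, 2.7 and 2.46 CPM at 6 h, at 0.14 to 0.493 CPM in Control and at 0.205 to 0.354 CPM at 24 h.

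Ccl5, which attracts T cells, was not called against Control at any time, with 1.21, 1.41, 1.8 and 1.82 CPM in Control and 2.55, 5.42, 2.34 and 4.18 CPM at 6 h. Ccl8 stood at 1.58, 2.98, 3.22 and 2.97 CPM at 6 h against 0.318, 0.704, 0.415 and 1.19 CPM in Control. It had no count at 72 h, at least 4.03-fold lower than Control by the same floor.

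Among the receptors, Ccr1, carried by neutrophils, monocytes and macrophages, rose at 6 h to 20.3, 7.17, 9.28 and 5.95 CPM from 1.72, 1.06, 0.208 and 1.4 CPM (log2 fold change 3.27 ± 0.82, adjusted p = 0.0058). At 24 h it held 4.16 to 5.67 CPM, above each Control library (log2 fold change 2.15 ± 0.79, adjusted p = 0.033, lost without any 1 of 7 of the 8 libraries, 1.8 to 2.28). Ccr2, the receptor of inflammatory monocytes, stood at 6.69, 6.62, 5.61 and 6.64 CPM in Control and at 2.03, 9.46, 12.3 and 12.9 CPM at 6 h without a call. At 72 h it had fallen to 0, 2.26, 3.81 and 0.706 CPM (log2 fold change -1.89 ± 0.73, adjusted p = 0.031, lost without Control library 1 or 72 h library 1 or 4, -1.88 to -1.53). Cx3cr1, the fractalkine receptor of resident macrophages, stood at 1.35 CPM in library 1 of 6 h and at 13.4, 15.1 and 13.2 CPM in the others, and was not called. Of 11 CC receptors, 4 passed the filter, and of these Ccr1 alone rose at 6 h (9.09% of 11, background 3.09% of all names).

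Library 1 of 6 h was thus high in Cxcl2, Cxcl5, Ccr1 and neutrophil markers and low in Ccr2 and Cx3cr1. The summed level of 12 monocyte and macrophage markers in the 6 h libraries was 494 to 645 CPM against 234 to 249 CPM in Control.

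**Figure D4:**
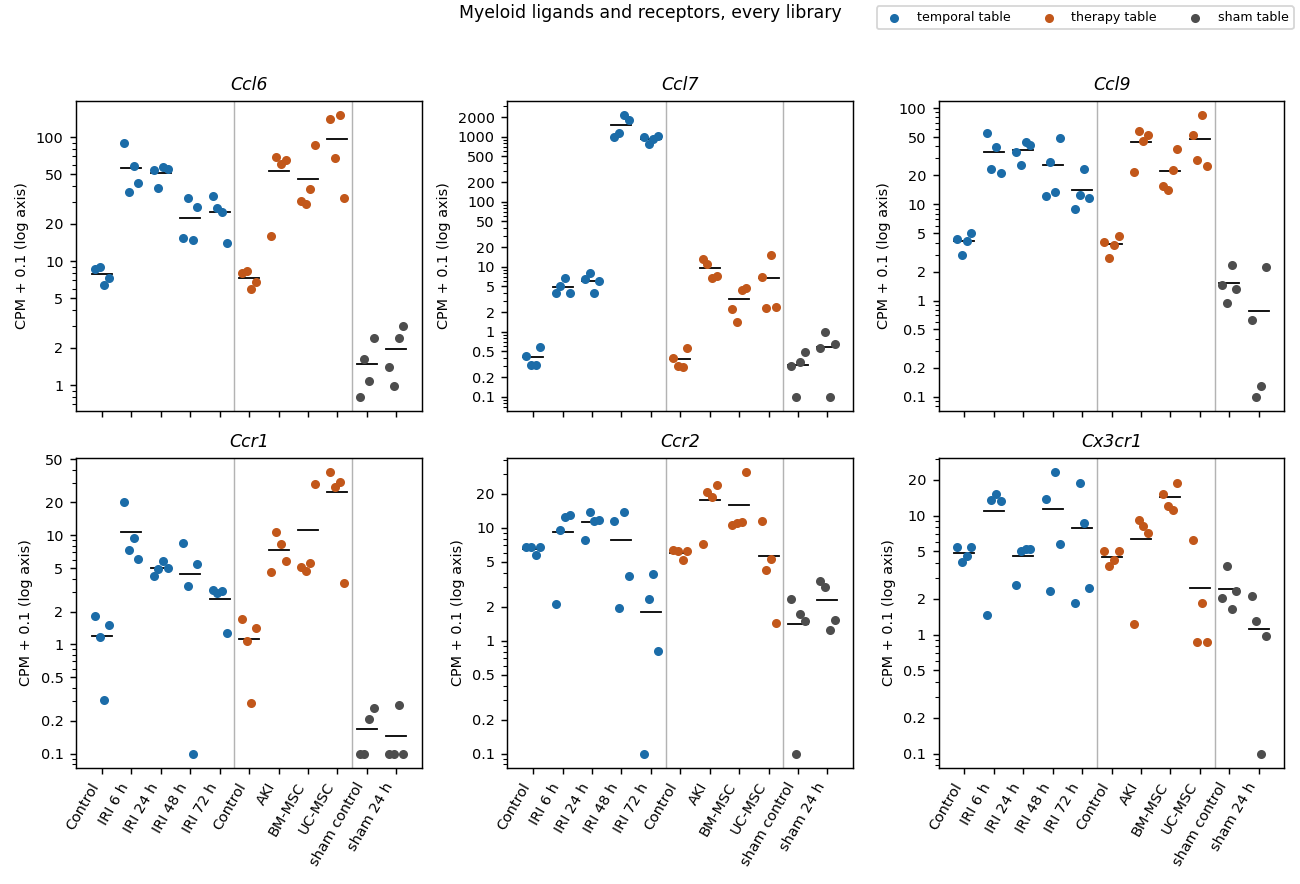
Levels of Ccl6, Ccl7, Ccl9, Ccr1, Ccr2 and Cx3cr1 in every library (points, CPM + 0.1 on a log axis) with group means (lines) in the 3 tables. Ccl6 and Ccl9 lie above Control in all groups after IRI, and BM-MSC library 4 stands above the other BM-MSC libraries in Ccr1 (29.3 CPM) and Ccr2 (31.2 CPM).

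The lymphoid and epithelial CC ligands moved in both directions. Ccl28, made by mucosal and other epithelia, stood at 60.8, 61.0, 89.2 and 59.0 CPM in Control and at 2.63, 24.2, 32.1 and 35.1 CPM at 6 h without a call (log2 fold change -1.52). It fell to 2.82, 2.43, 2.48 and 0.924 CPM at 24 h (log2 fold change -4.97 ± 0.71, adjusted p = 5.5e-06) and no later library passed 7.19 CPM. Ccl19, a Ccr7 ligand of lymphoid stroma, fell at 24 h to 0.149, 0.128, 0 and 0 CPM from 2.36, 2.82, 3.53 and 2.86 CPM (log2 fold change -5.37 ± 1.58, adjusted p = 0.0083). The other Ccr7 ligand, Ccl21a, shares near-identical copies, between which reads could be split. It stood at 11.4, 10.1, 8.72 and 10.4 CPM in Control and at 0, 6.16, 0 and 0 CPM at 72 h (log2 fold change -2.69, adjusted p = 0.029, lost without 72 h library 1, 3 or 4, -2.34 to -2.31). Library 2 of that group is one of those with adrenal genes.

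Ccl27a, an epithelial ligand of Ccr10 with near-identical copies, rose at 24 h to 20.1, 23.5, 13.3 and 15.8 CPM from 11.5, 6.9, 6.51 and 8.24 CPM (log2 fold change 1.13 ± 0.37, adjusted p = 0.017). That call was lost without Control library 2 or 3 or 24 h library 1 or 2 (0.97 to 1.04). Ccl25, the Ccr9 ligand, rose at 48 h to 21, 22.3, 13.2 and 8.86 CPM from 4.58 to 6.09 CPM (log2 fold change 1.64 ± 0.43, adjusted p = 0.0025). Ccl20, the sole chemokine ligand of Ccr6, rose at 6 h to 1.35, 5.05, 7.38 and 5.21 CPM from 0.0692 to 0.559 CPM (log2 fold change 4.07 ± 0.63, adjusted p = 5.9e-05) and fell again by 24 h, to 0.297, 2.05, 0.708 and 0.513 CPM (-2.44 ± 0.57 against 6 h).

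Cx3cl1, or fractalkine, a membrane-bound ligand of endothelium and tubules, changed direction. It rose at 6 h to 137, 249, 239 and 217 CPM from 98.9, 118, 118 and 107 CPM (log2 fold change 0.93 ± 0.21, adjusted p = 0.0028). At 24 h it stood at 55.3, 71.7, 56.8 and 58.3 CPM, below every Control library (-0.87 ± 0.21, adjusted p = 0.0022). From 6 to 24 h it fell by 1.8 ± 0.22 (log2, adjusted p = 1.8e-06), and it was still lower than Control at 72 h (-1.04 ± 0.22).

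Ackr3, the atypical receptor that takes up Cxcl12, fell in steps. Its level was 50.3, 55.7, 57.8 and 53.7 CPM in Control and 67.4, 63.7, 62.2 and 52.9 CPM at 6 h. At 24 h it held 23.8, 21.2, 20.5 and 23.8 CPM, at 48 h 9.39, 6.82, 12.3 and 7.64 CPM, and at 72 h 0.876, 5.75, 2.2 and 3.53 CPM. Against Control the log2 fold change was -1.28 ± 0.26 at 24 h, -2.58 ± 0.28 at 48 h and -4.13 ± 0.32 at 72 h, with adjusted p-values of 0.00034, 6.3e-08 and 2.7e-10. The ranges of the last 3 times did not overlap. The other atypical receptors, Ackr1 (the Duffy antigen of erythroid cells and venules), Ackr2 and Ackr4, were too low to test in the temporal table and had no count at 48 or 72 h.

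Between neighbouring times, 4 members rose and 9 fell from 6 to 24 h (background 14.9% and 13.9% of all genes), 5 rose and 3 fell from 24 to 48 h (9% and 12.1%), and 0 rose and 2 fell by edgeR from 48 to 72 h (2.04% and 3.63%). At an unadjusted p under 0.05, 3 rose in the last step, among them Cxcl3 and Cxcl13. The third, Ccr4, passed the filter only with the 72 h libraries, so its rise was set in advance and is no result. By DESeq2 0 rose. The 2 that fell last were Cxcl10 and Ackr3. Ackr3 fell by 1.55 ± 0.32 (log2, adjusted p = 0.0084).

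Some steps after 24 h were of another size. A member was marked where its mean log2 CPM moved by more than 4 between neighbouring late times while the median member moved by less than 1. Ccl20, Ccl7 and Cxcl3 were marked upwards from 24 to 48 h, by 10.95, 7.92 and 4.31, and Cxcl13 downwards, by 4.34. The median step of the 32 tested members was 0.14 from 24 to 48 h and -0.57 from 48 to 72 h. Ccl20 held 1746, 2129, 1693 and 1747 CPM at 48 h and 781, 3396, 2908 and 3686 CPM at 72 h, where no library of the other groups in any table passed 7.38 CPM. Its receptor Ccr6 stayed at 0 to 10 counts per library. Ccl7 held 994, 1151, 2151 and 1818 CPM at 48 h and 994, 764, 927 and 1017 CPM at 72 h. Cxcl3 held 46.3, 211, 147 and 363 CPM at 48 h and 405, 497, 250.3 and 786 CPM at 72 h.

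On the log2 CPM used to mark members, 7 of 16653 tested names rose by more than 4 from 24 to 48 h, of which 3 were members. Over 55862 names of the temporal table, with 0.5 CPM added before the log, the names that rose by more than 4 from 24 to 48 h were 5, and all 5 match the rule: Ccl2, Ccl7, Ccl11, Ccl20 and Cxcl3. Ccl2, the main Ccr2 ligand, stood on more than one line with different late counts. One line gave 13476, 17121, 14755 and 11734 counts at 48 h, and another gave 50, 28, 50 and 5 counts with the same Control, 6 h and 24 h counts. Ccl11 had 15050, 14513, 15256 and 11089 counts at 48 h, and Control library 4 had 5 counts in one table and 20 in the other. The Control counts of Cxcr2 in the temporal table (658, 206, 155 and 598) were those of Havcr1, a marker of injured tubules, in the therapy table, where Cxcr2 had 3, 6, 1 and 8 counts. Cxcr2 shows that counts can stand under another gene's name in that table, and whether the late values of Ccl7, Ccl20 and Cxcl3 do was not tested. Without the 4 marked members 10 of 56 rose and 4 fell at 48 h, 10 rose and 7 fell at 72 h, and 2 rose and 2 fell from 24 to 48 h.

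**Figure D5:**
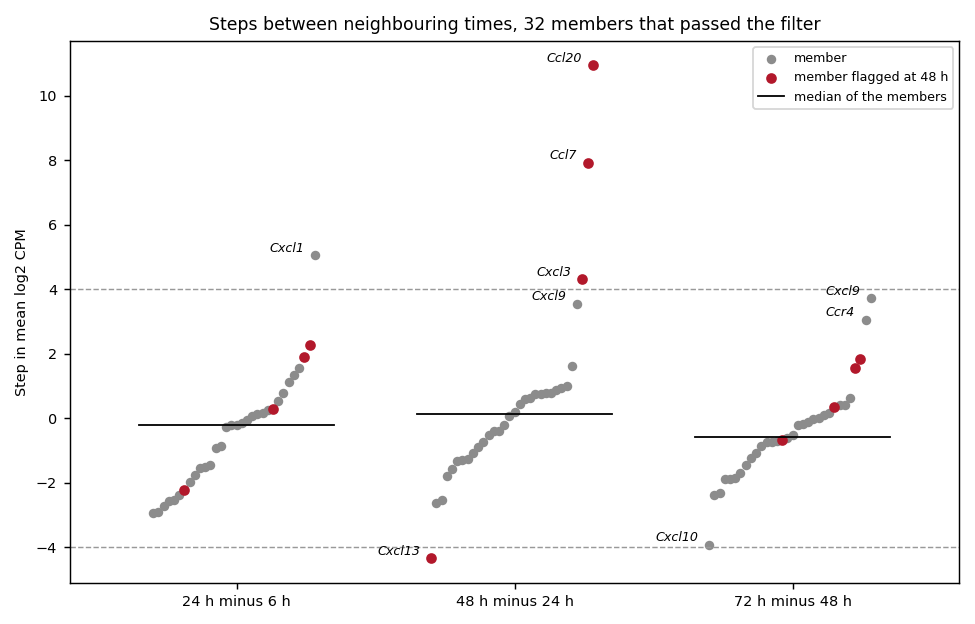
Step in mean log2 CPM of 32 members between neighbouring times (points), with dashed lines at -4 and 4. The marked members (red) are Ccl20, Ccl7 and Cxcl3 above and Cxcl13 below the lines from 24 to 48 h.

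At 72 h Ccr4, a T cell receptor, stood at 3.5, 3.08, 3.4 and 2.12 CPM against at most 0.639 CPM in the other temporal libraries, from 57 counts in all at 72 h. Cxcl13 stood at 13.1, 18.7, 0.801 and 0 CPM there, above Control (log2 fold change 3.49, adjusted p = 0.015). Cxcl13 lost its call without 72 h library 2 (2.64). Without the adrenal-containing libraries 2 and 4 of 72 h, 12 members rose and 6 fell, and Ccl25 and Ccr2 were among those no longer called.

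The AKI and 6 h groups carry the same library numbers and the same label of 6 h after reperfusion, but only 0.538 to 0.642% of names with at least 20 counts had equal counts in libraries of the same number. Their chemokine levels differed as well, each beside the same Control libraries. Cxcl1 stood at 97.9, 31.0, 42.6 and 28.2 CPM in AKI and at 2.39 to 5.63 CPM at 6 h. Cxcl12 stood at 52.2, 46.8, 42.6 and 60.5 CPM in AKI and at 82.4 to 127 CPM at 6 h. Cx3cl1 stood at 78.6, 109, 131 and 121 CPM in AKI and at 137 to 249 CPM at 6 h. Ccl19 had 0, 0.321, 0 and 0 CPM in AKI, a fall of 4.93 ± 0.77 from Control (log2). The tables were scaled separately, so these levels are set side by side without a test. AKI libraries also had lower summed endothelial markers (253, 62, 79 and 65.8 CPM) than Control (463 to 490 CPM) and BM-MSC (433 to 673 CPM), and the part of that in the values below was not tested.

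Against Control, AKI kidneys had higher Cxcl1 (log2 fold change 5.3 ± 0.55, adjusted p = 1e-05), Ccl7 (5.01 ± 0.68) and Ccr2, the latter at 7.03, 20.6, 18.7 and 23.7 CPM (1.56, lost without any 1 of 6 libraries, 1.38 to 1.58). They had lower Cxcl12 (-2.1 ± 0.2, adjusted p = 6.3e-06), Cxcl14 (-2.19 ± 0.31) and Ccl21a (-3.64 ± 0.67). Cxcl2 rose by 3.89 ± 1.21 (adjusted p = 0.021), which did not hold without AKI library 1 or Control library 3 or 4 (3.01 to 3.83).

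In BM-MSC kidneys the attractants were above Control while Cxcl12 was at its level. Cxcl1 stood at 7.59, 4.22, 7.0 and 18.3 CPM, above all 4 Control libraries (log2 fold change 2.88 ± 0.52, adjusted p = 0.0041) and below all AKI libraries (-2.42 ± 0.47 against AKI, adjusted p = 0.0011). Cxcl12 held 223, 232, 194 and 218 CPM against 219, 223, 215 and 209 CPM in Control. Cx3cl1 rose above Control to 175, 155, 211 and 191 CPM (0.84 ± 0.17, adjusted p = 0.0062). BM-MSC library 4 held 30.3 CPM of Cxcl2, 20.8 CPM of Cxcl3, 29.3 CPM of Ccr1 and 31.2 CPM of Ccr2, where the other 3 held at most 4.01, 0.904, 5.42 and 11.2 CPM. Its summed neutrophil markers were 342 CPM and those of the others 13.1 to 25.7 CPM. Without that library 8 members rose, and Ccr1 (2.28, adjusted p = 0.0637), Cxcl2 (3.04), Cxcl3 (1.8), Cxcl5 (3.48) and Cxcl16 (0.65) were among those not called.

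Set against AKI, BM-MSC kidneys had 5 members higher and 3 lower (8.33% and 5.0% of 60, background 16.3% and 17.1% of tested genes, 4.87% and 5.09% of all names). Lower were Cxcl1, Ccl7 (-1.59 ± 0.54, adjusted p = 0.033) and Ccl25 (-1.37 ± 0.21, adjusted p = 0.00022). Higher were Cxcl12 (2.1 ± 0.2, adjusted p = 7.4e-06), Cxcl14 (2.04 ± 0.31), Cx3cl1 (0.73 ± 0.16, adjusted p = 0.0033), Ccl19 (4.13 ± 0.77) and Ccl21a (3.98 ± 0.68). Ccl7 lost its call without AKI library 1 or 2 or BM-MSC library 1 or 2 (-1.51 to -1.34). With the 6 h libraries in the place of AKI, 2 members were called, Cxcl10 and Cxcl12, both higher in BM-MSC (2.23 and 0.97). Cxcl1 then had a log2 fold change of 1.29 in place of -2.42. The sign also turned for Cxcl14 (-0.8), Cx3cl1 (-0.2), Ccl19 (-0.41) and Ccl21a (-0.13), so for these 5 which injured group served as reference decided the sign. Markers of other cells moved between BM-MSC and AKI too. Of 6 fibroblast and pericyte markers 4 were higher and 1 lower in BM-MSC (summed level 1381 to 2715 against 224 to 396 CPM). All 5 adipocyte markers were lower (138 to 239 against 495 to 761 CPM), and 5 of 8 endothelial markers were higher. Their part in these values was not tested.

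UC-MSC kidneys had the highest levels of several attractants in the therapy table. Cxcl2 stood at 169.8, 66.7, 121 and 13.3 CPM, above every AKI library (at most 10.7 CPM), with a log2 fold change of 8.24 ± 1.26 against Control (adjusted p = 0.00017) and 4.36 ± 0.97 against AKI (adjusted p = 0.0024). Cxcl3 stood at 89.7, 34.6, 52.8 and 4.14 CPM and Cxcl5 at 24.3, 7.98, 49.1 and 2.89 CPM. Library 4 was lowest in each of these. Ccl3, a ligand of Ccr1, stood at 6.91, 3.67, 13.2 and 0.867 CPM against 0.065 to 0.178 CPM in Control, and Cxcl13 at 21.3, 8.94, 66.3 and 7.22 CPM (log2 fold change 5.27 ± 0.82 against Control). Ccr1 stood at 38, 27.7, 30.8 and 3.56 CPM (4.61 ± 0.8 against Control). The summed neutrophil markers were 548, 330, 406 and 52.1 CPM in the same order of libraries, against 5.44 to 27.5 CPM in AKI, and their part in these values was not tested.

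Among the atypical receptors, Ackr3 rose in UC-MSC kidneys against Control. It stood at 54.5, 131, 119 and 213 CPM against 46.8, 51.4, 52.7 and 50.2 CPM in Control (log2 fold change 1.36 ± 0.28, adjusted p = 0.0017). Ackr2, a scavenger of inflammatory CC ligands, stood at 2.3, 1.87, 3.39 and 1.06 CPM against 0.237, 0.13, 0.442 and 0.261 CPM in Control, none of whose libraries reached the filter level. Ackr1 stood at 0.767, 1.35, 2.58 and 0.674 CPM against 0.356, 0, 0.253 and 0 CPM. Ackr4 stood at 0.767, 1.03, 1.13 and 0.963 CPM against 0.297, 0.325, 0.126 and 0.326 CPM. The UC-MSC libraries of these 3 receptors lay above those of Control. Cxcl14 rose above Control to 101, 65.3, 92.3 and 67.8 CPM (1.04 ± 0.3, adjusted p = 0.012). Cxcl12 stood at 186, 113, 136 and 79.3 CPM, lower than Control (-0.75 ± 0.2, adjusted p = 0.0075) and higher than AKI (1.35 ± 0.2). Ccl28 fell to 21.2, 5.28, 5.59 and 11.9 CPM (-2.5 ± 0.43). The summed kidney markers were 1535 to 5077 CPM in UC-MSC and 10759 to 12508 CPM in Control (4 of 9 lower), and their part in the 2 falls was not tested.

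Against AKI, 14 members were higher and 4 lower in UC-MSC (23.3% and 6.67%, background 20.3% and 20.2% of tested genes, 6.06% and 6.01% of all names). Cxcl14 (3.23 ± 0.32, adjusted p = 7e-06) and Ccl21a (3.32) were among the higher and Ccr2 (-1.65) and Ccl28 (-1.39) among the lower. Ccr2 lost its call without UC-MSC library 2 (-1.52), and Ccl28 without AKI library 3 or UC-MSC library 3 (-1.17 to -1.15). With the 6 h libraries in the place of AKI the sign turned for Cxcl1 (3.68), Ccl19 (-1.74), Cx3cl1 (-0.81) and Ccl21a (-0.8). Cxcl2 (1.11), Cxcl14 (0.4) and Cxcl12 (0.21) were then not called, and Cxcl13 (2.63) still was. The 3 comparisons with Control and those with AKI share the Control or AKI libraries.

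Between the 2 sources of MSCs, 8 members were higher in UC-MSC and 7 in BM-MSC (13.3% and 11.7% of 60, background 10% and 10.4% of tested genes, 2.99% and 3.11% of all names). Higher in UC-MSC were Cxcl13 (3.96 ± 0.75, adjusted p = 0.0028), Cxcl1 (2.37 ± 0.47, adjusted p = 0.0032, 39.8 to 66.2 against 4.22 to 18.3 CPM) and, with overlapping libraries, Cxcl2 (3.28 ± 0.91, adjusted p = 0.019). Higher in BM-MSC was Cx3cr1, at 15.2, 11.9, 11 and 18.8 CPM against 6.19, 0.772, 1.76 and 0.77 CPM in UC-MSC (-2.55 ± 0.61, adjusted p = 0.0091). So were its ligand Cx3cl1 (-0.61), Cxcl12 (-0.75), Ccl28 (-1.98), Ccl20 (-2.05) and Ccr2 (-1.51). Cxcl2 lost its call without BM-MSC library 1, 2 or 3 (2.94 to 3.03), Cx3cl1 without BM-MSC library 3 or UC-MSC library 2 or 3 (-0.57 to -0.54), and Ccl20 and Ccr2 each without any 1 of 7 libraries.

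After sham surgery 27 of the 60 members could be tested and 33 could not, and of the 5 ELR ligands only Cxcl1 passed the filter. Against sham control, 2 fell (3.33% of 60, background 13.1% of tested genes, 4.18% of all names). By edgeR 0 rose (background 7.7% of tested genes, 2.45% of all names), as by DESeq2 or at an unadjusted p under 0.05. The share of members that fell was near that of all names. Ccl28 fell from 7.43, 7.1, 11.6 and 5.23 CPM to 4.0, 2.08, 2.27 and 2.59 CPM, with no overlap (log2 fold change -1.52 ± 0.31, adjusted p = 0.0018). Ackr3 fell from 19.5, 24.3, 19.9 and 25.2 CPM to 12.2, 10.6, 17.2 and 20.4 CPM, with overlap (-0.56 ± 0.19, adjusted p = 0.049), and without any 1 of 5 libraries it was not called (-0.62 to -0.42). Summed kidney markers were 6317 to 8318 CPM in sham control and 4664 to 5384 CPM after sham surgery (4 of 9 lower), and their part in these falls was not tested. Cxcl1 held 1.79, 2.72, 4.53 and 3.9 CPM after sham surgery and was not called.

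The change 24 h after IRI was compared with that 24 h after sham surgery, each against its own controls. The difference was called higher for 11 members and lower for 4 (18.3% and 6.67% of 60, background 24.8% and 20.1% of tested genes, 8.25% and 6.7% of all names). It was 5.85 ± 0.46 for Cxcl1 (log2, adjusted p = 8.5e-10), 5.98 ± 1.26 for Cxcl13 and 4.44 ± 0.84 for Ccl9. Cxcl13 did not pass the filter in the sham table, and 1 Control library reached the temporal filter level, against all 4 of 24 h. Its higher value may therefore have been set in advance. For Cxcl12 the difference was -3.02 ± 0.25 (adjusted p = 1.6e-09), for Ccl28 -3.35 ± 0.39 and for Cx3cl1 -0.9 ± 0.18. Cxcl2 had 8 counts in the sham control libraries and none after sham surgery, and Cxcl5 had 22 counts over both groups. Neither passed the filter in the sham table, and no Control library of either reached the filter level of the temporal table. Both passed here through the 24 h libraries, where they were high, so a higher value was set in advance and no difference is given. Counts of called members hold both, and Cxcl2 lost its call without sham control library 3. Ackr4 (4.18 ± 1.41) was not called without 24 h library 4 (3.82). Ccl7 (3.18) was not called without any 1 of 6 libraries (2.72 to 3.18), and Ackr3 (-0.64) without sham 24 h library 3 or 4 or sham control library 1 or 3 (-0.59 to -0.46). In the same comparison 5 of 5 adipocyte markers were higher and 5 of 9 kidney markers lower, and their part was not tested. The unoperated groups themselves differed between tables, with mean Cxcl12 at 234 ± 7.33 CPM in Control and 78.3 ± 3.98 CPM in sham control (SD, n = 4), Cx3cl1 at 110.5 ± 9.17 and 29.5 ± 1.6 CPM, and Ccl28 at 67.5 ± 14.5 and 7.84 ± 2.68 CPM. These tables were scaled separately, so no test was made.

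Genes around the chemokine system were read from lists of upstream signals, downstream signalling and proteins that cut or hold chemokines. Of 28 cytokines, receptors and NF-kB regulators that induce chemokines, 26 were tested in the temporal table and 25 in the therapy table. Of these, 15 rose at 6 h (background 10.4% of tested genes) and 11 at 24 h (background 21.8%). At 48 h 11 rose and 2 fell (26.9% and 26.8%), and at 72 h 8 rose and 5 fell (26.7% and 29.6%). In AKI 11 rose (20%), in BM-MSC 8 (6.56%) and in UC-MSC 20 (20.4%), where 1 fell. Their median log2 fold change at 6 h was 1.08, beside -0.07 over all genes tested. Bcl3, an IkB-like co-regulator, rose at 6 h by 2.28 ± 0.39. Nfkbiz, which is needed for late NF-kB targets, rose by 1.72 ± 0.28 at 6 h and by 4.36 ± 0.3 at 24 h. Cebpb rose in UC-MSC by 2.5 ± 0.29.

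Of 21 genes of signalling below the receptors, 8 rose at 6 h, 9 rose and 1 fell at 24 h, 8 rose and 1 fell at 48 h, and 7 rose and 2 fell at 72 h, against the same backgrounds. In AKI 4 rose and 2 fell (background 20% and 15.1% of tested genes), in BM-MSC 4 rose (6.56%) and in UC-MSC 13 (20.4%). Their median log2 fold change was 0.68 at 6 h, 0.67 at 24 h, 0.18 in AKI, 0.84 in BM-MSC and 0.87 in UC-MSC. Rgs16, which ends G protein signals, rose at 6 h by 3.74 ± 0.87, and Rgs1 in UC-MSC by 5.6 ± 1.02. Coro1a and Rac2, actin regulators of leukocytes, rose at 6 h by 1.64 ± 0.22 and 1.67 ± 0.32. The beta-arrestin gene Arrb1 fell at 24 h (-1.05 ± 0.15) while Arrb2 rose (1.54 ± 0.23).

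Of 17 proteins that cut or hold chemokines, 16 were tested in the temporal table. Of these, 2 rose and 1 fell at 6 h, and 2 rose and 5 fell at 24 h. At 48 h 3 rose and 6 fell, and at 72 h 2 rose and 8 fell. Of all genes tested, 10.4%, 21.8%, 26.9% and 26.7% rose at these times and 8.51%, 20.2%, 26.8% and 29.6% fell. In AKI 3 rose and 5 fell (background 20% and 15.1% of tested genes), in BM-MSC 6 rose (6.56%), and in UC-MSC 8 rose and 2 fell (20.4% and 16.7%). Their median log2 fold change was -0.32 at 24 h, -0.71 at 72 h, -0.28 in AKI, 0.58 in BM-MSC and 0.42 in UC-MSC. Dpp4, which trims the amino terminus of Cxcl12 and other ligands, fell at 24 h (-2.27 ± 0.42). Sdc1, a heparan sulphate proteoglycan of epithelium, rose at 6 h by 2.24 ± 0.32 while Sdc2 fell (-1.01 ± 0.24). Mmp9 rose in UC-MSC by 4.74 ± 1.07, and Mmp8, the collagenase of neutrophils, by 8.49 ± 1.77. Mmp8 did not pass the filter in the temporal or sham tables. It may have passed in the therapy table through groups where it is high, so its rise may have been set in advance.

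Members too low to test in any table numbered 19, among them the T cell receptor Cxcr6, the dendritic cell receptor Xcr1 and the lymphoid receptor Ccr7. Ccr7 held at most 1.26 CPM in Control and had no count at 72 h, at least 5.09-fold lower by the floor of 3 counts over the group. Xcr1 held 0.191, 0.282, 0.9 and 0.768 CPM in Control and had no count from 24 h on, at least 6.77-fold lower at 24 h. These bounds cover counting error only. There were 3 members with no count in any library.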

How the data were processed

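RNA-seq libraries of mouse kidney were read from 3 deposited tables of raw read counts per gene, which the authors made with HTSeq on GRCm39 (mm39), per the submitters' processing notes. Those notes also name DESeq2, while the aligner and the use of strand are not given in the sources used here. Reads of near-identical copies (Ccl21a, Ccl27a) could be split. The temporal and therapy tables repeat lines where a name has several gene IDs. Repeats were dropped, and counts of the several IDs of a name were added. Control counts were compared between these tables, and 85 names whose counts disagreed were left out of both fits.

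Each table was fitted with all its groups by edgeR 4.0.16 (R 4.3.3, glmQLFit and glmQLFTest) after TMM scaling and filterByExpr, two-sided, with Benjamini-Hochberg adjustment over all genes (16653, 16623 and 17781). The change after IRI against that after sham surgery was fitted on 16 libraries and 18563 genes. SE is the log2 fold change over the square root of F. Log2 CPM used a prior count of 2. All members could be named, and per-library values were given for a list of sentinel genes and, per comparison, for the 6 called members that changed most. Members and lists were chosen with earlier results of these data known. Tested on simulated data with 200 changed genes, the fit called 23% of 2-fold and 59% of 4-fold changes for IRI 6 h against Control, 29% and 86% for UC-MSC against AKI, 57% and 72% for sham surgery, and 35% and 57% for the difference of IRI and sham, with 2 to 7 false calls. Alternatives were DESeq2 1.42.0 and its size factors, other filters, fits of the compared groups alone, a replicate block, each library left out, disagreeing names kept, and IRI 6 h in place of AKI. Leaving out 72 h libraries 2 and 4 was added after seeing the data. The values of 1 member and 1 gene of the pathway lists are not reported here, while counts over all members and lists hold them. Promoter sequences come from RefSeq (GRCm38.p6). Python 3.11.15, pandas 2.3.3, numpy 2.4.6 and matplotlib 3.10.9 were used. No column of per-sample values was left unused (0).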

Additional observations from a re-analysis of the deposited data

Results flagged for a closer look

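In groups of 4 libraries, 37 of 242 gene levels had 1 library standing apart from the other 3 by Dixon's criterion, where chance gives about 5%. Values below are CPM. BM-MSC library 4 stood highest for 8 genes: Ccl3 (1.96), Ccl4 (2.8), Ccr1 (29.3), Ccr2 (31.2), Cxcl2 (30.3), Cxcl3 (20.8), Cxcl5 (6.25) and Cxcr4 (11.1). Library 1 of IRI 6 h stood highest for Cxcl2 (136), Cxcl5 (28.2), Cxcl13 (11.6) and Cxcl14 (97.8) and lowest for Ccl8 (1.58), Cx3cr1 (1.35) and Cxcl9 (1.2). Both libraries also had the highest summed neutrophil markers of their groups (342 and 469 CPM), and the part of neutrophil RNA in these values was not tested.

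AKI library 1 stood highest for Cxcl2 (10.7) and Cxcr4 (16.9) and lowest for Ccl20 (0.562), library 2 highest for Ccl8 (2.82) and library 3 for Ccl5 (4.29). Library 2 of 48 h stood highest for Ccl20 (2129), Ccl21a (5.9) and Ccl8 (1.29). At 72 h library 1 stood highest for Ccl19 (1.53) and Cxcl1 (243), library 2 for Ccl21a (6.16) and library 3 for Ccl5 (4.01), and library 4 lowest for Ccr1 (1.18). Control library 3 stood highest for Ccl28 (89.2) and lowest for Ccr2 (5.61). Single flags fell on library 1 of 24 h (Cx3cr1, lowest at 2.53), BM-MSC library 3 (Ackr3 61.0), UC-MSC library 1 (Ccl20 2.47) and library 3 (Ccl8 4.96), and sham control library 2 (Cxcl10 2.25). Sham 24 h library 1 stood highest for Ccl19 (1.48) and Cxcl9 (2.47).

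The change after IRI at 24 h differed from that after sham surgery, by the test of the difference itself, for 15 members. Among them the log2 difference was 7.3 for Cxcl2, 6.15 for Cxcl5, 5.98 for Cxcl13, 5.85 for Cxcl1, 4.44 for Ccl9, 4.18 for Ackr4, 3.18 for Ccl7, 2.4 for Ccl6, 1.02 for Ccl27a and 0.84 for Cxcl16. It was -3.35 for Ccl28, -3.02 for Cxcl12, -0.9 for Cx3cl1 and -0.64 for Ackr3. The IRI and sham libraries stand in separate tables, so table and surgery cannot be told apart beyond the use of each table's own controls.

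The 4 names that were not compared also carried signal. The highest count was 17121 for Ccl2 at 48 h, 15256 for Ccl11 at 48 h, 658 for Cxcr2 in Control of the temporal table (the counts of Havcr1 in the therapy table) and 43 for Ccl12 in AKI. In the therapy table Cxcr2, the neutrophil receptor of the ELR ligands, had 3, 6, 1 and 8 counts in Control, 44, 22, 19 and 699 in BM-MSC and 563, 265, 251 and 19 in UC-MSC, with BM-MSC library 4 again apart.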

How the results depend on the processing

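Depth was lowest at 72 h, where libraries held 4640921 to 5366202 counts, which limits what could be called there. Of the member changes called, 204 kept their direction and call under DESeq2 and 2 lost it, and 13 more were called there. With DESeq2 size factors 204 kept and 2 lost their call. Without a filter on low counts 195 kept and 11 lost it. TMM and size factors placed the median of all genes tested at 0.007 and 0.11 (log2) at 48 h and at -0.044 and 0.086 at 72 h. Counts of called members moved by over 1.5 times as follows, and the cause was not tested. Fitting only the groups compared gave 22 called at 6 h against 13 with all groups (21 higher, 1 lower), 11 for UC-MSC against AKI against 18, and 0 for 72 h against 48 h against 2. For 72 h against 48 h DESeq2 gave 5, disagreeing names kept gave 4 and no filter gave 5. Sham surgery gave 1 with DESeq2 size factors against 2, and BM-MSC against AKI gave 2 with IRI 6 h in place of AKI against 8. A late step of 3 in place of 4 marked 7 members, and a step of 5 marked 2.

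With IRI 6 h in place of AKI the sign turned for BM-MSC in Ccl19 (-0.41), Ccl21a (-0.13), Cx3cl1 (-0.2), Cxcl1 (1.29), Cxcl10 (2.23) and Cxcl14 (-0.8). It turned for UC-MSC in Ccl19 (-1.74), Ccl21a (-0.8), Ccl25 (0.27), Cx3cl1 (-0.81), Cxcl1 (3.68) and Cxcl10 (1.58). The change of Ccl5 from 48 to 72 h was not called with all libraries. When 1 library was left out it ranged from -6.35 to 0.45, and the fall of -6.35, without 72 h library 3, was called.

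Leaving out 1 library at a time gave 10 to 12 called members at 6 h, 14 to 17 at 24 h, 14 to 18 at 48 h, 18 to 21 at 72 h, 9 to 11 for 24 h against 6 h, 6 to 12 for 48 h against 24 h, 3 to 5 for 72 h against 48 h, 15 to 20 in AKI, 8 to 14 in BM-MSC and 18 to 24 in UC-MSC against Control, 7 to 10 for BM-MSC and 14 to 21 for UC-MSC against AKI, 9 to 18 for UC-MSC against BM-MSC, 1 to 5 after sham surgery and 13 to 17 for IRI against sham. Library numbers are shared by the groups of each table (for sham, as column numbers), but libraries of the same number did not deviate together (correlations from -0.52 to 0.44, none above 0.1 in every pair of 2 groups). With the replicate number as a block, 13, 17, 17 and 18 members were called at 6, 24, 48 and 72 h, 17, 12 and 20 in AKI, BM-MSC and UC-MSC against Control, 8, 17 and 13 between the injured groups, 13, 8 and 2 between neighbouring times, 2 after sham surgery and 14 for IRI against sham, where Ccl7 (3.49) was no longer called.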
